A study of Rattus norvegicus with 12 samples.

Results

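The genes described here differed in abundance in differentiated rat smooth muscle cells treated with an siRNA against the RNA-binding protein RBPMS, while staying close to the control in the same cells treated with siRNAs against the MBNL proteins. They were chosen on group means of counts per 1000000 (CPM, a gene's read count over the sum of all gene counts in its library, times 1000000). A gene was taken if its larger mean raw count of D1 and RBPMS KD1 was at least 200, its RBPMS KD1/D1 ratio was at least 1.7 or at most 0.59, and its MBNL KD/D1 ratio lay between 0.75 and 1.33. Rbpms itself was left out. Of 33294 genes in the count table, 11574 reached the count floor and 283 met the rule. Of these, 118 were raised and 165 were lowered in RBPMS KD1. Because RBPMS KD1, MBNL KD and D1 chose the genes, their values in these 3 groups are a description with no test, and only the P libraries were independent of the choice.

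All libraries were poly(A) RNA of PAC1, a rat pulmonary artery smooth muscle cell line that can be kept in a more differentiated state (PAC1-D) or a more proliferative one (PAC1-P) by how it is split. D1 was PAC1-D treated with a control siRNA, RBPMS KD1 was PAC1-D treated with an siRNA against Rbpms, MBNL KD was PAC1-D treated with siRNAs against Mbnl1 and Mbnl2 together, and P was PAC1-P treated with the control siRNA. Each of the 4 groups had 3 libraries, every group was transfected with siRNA, and a single siRNA per target was used. The labels give 90 pmol of siRNA, a second treatment after 24 h and harvest 48 h later, and the study's methods give a longer schedule. All groups come from 1 cell line. The study's methods call repeats of a knockdown biological replicates, and p-values measure the spread between such repeats of that line.

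RBPMS carries an RNA recognition motif and is known as a regulator of alternative splicing in differentiated smooth muscle cells. The muscleblind-like proteins MBNL1 and MBNL2 are a separate family of splicing regulators that act in muscle and other tissues. Smooth muscle cells can leave a contractile state, in which actin, myosin and their partners are abundant, for a proliferative state in which these genes are low.

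D1 and P received the same control siRNA and differ in culture state. The siRNAs separate the knockdown groups from D1, and are shown because each comparison of a knockdown with D1 is a comparison of these duplexes. They are given as the 1 strand listed in the study's supplementary files, without marking any base.
C2 (control): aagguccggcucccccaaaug
RBPMS: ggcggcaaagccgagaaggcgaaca
MBNL1: cacggaauguaaauuugcauu
MBNL2: gaagaguaauugccugcuuuu
The RBPMS strand has 25 bases and the others have 21, so that the knockdowns differ in duplex length as well as in target. No transcript sequences were used, and matches of these strands to other transcripts were not examined.

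Total counts per library lay between 80842635 and 90771289, with 19659 to 20904 genes counted. Rbpms itself stood at 144 ± 7.41 CPM in D1 (SD, n = 3), 36.5 ± 0.849 in RBPMS KD1, 125 ± 1.74 after MBNL KD and 10.2 ± 0.154 in P. Each RBPMS KD1 library held between 24.9% and 26.0% of the D1 mean. Mbnl1 fell to 82.3 CPM and Mbnl2 to 53.3 CPM in MBNL KD, from 333 and 173 CPM in D1, against 364 and 197 CPM in RBPMS KD1. The smooth muscle markers Acta2, Tagln, Cnn1, Myh11, Mylk and Myocd summed to between 8387 and 8762 CPM in D1, 4262 to 4381 CPM in RBPMS KD1, 7055 to 7126 CPM under the MBNL siRNAs and 135 to 144 CPM in P, so that the markers of the labelled cell type were abundant in PAC1-D and low in P. The endothelial markers summed to between 0.721 and 0.787 CPM in D1, 1.76 to 1.82 in RBPMS KD1, 0.940 to 1.44 with the MBNL siRNAs and 5.91 to 7.35 in P, and Vwf and Tek stood at 0.439 and 0.258 CPM in D1 and 1.04 and 0.654 in RBPMS KD1. The fibroblast markers Pdgfra, Dcn, Lum and Col14a1 summed to between 1171 and 1188 CPM in D1, 1118 to 1131 in RBPMS KD1, 755 to 776 with the MBNL siRNAs and 295 to 309 in P. Col14a1 made up most of the fibroblast sum, with a D1 mean of 1038 CPM. Its mean was 997 under the RBPMS siRNA and 96.6 in the P libraries. The other fibroblast markers did not all follow it. Under the RBPMS siRNA, Pdgfra went from 5.13 to 9.76 CPM and Dcn from 12.4 to 20.3, while Lum went from 126 to 98.2. The P libraries had more Dcn (23.0) and Lum (177) than D1, and less Pdgfra (4.71). The part of endothelial cells and fibroblasts in the results was not tested. The epithelial markers Epcam, Cdh1 and Krt14 and 3 of the 6 endothelial markers, Cdh5, Kdr and Tie1, were at or under 3 counts in all 9 PAC1-D libraries, as were the leukocyte markers Ptprc and Itgam.

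Of the genes at or above the floor, 589 passed the RBPMS limits in either direction, and 306 of these lay outside the MBNL band, which leaves the 283. The raised genes had a median RBPMS KD1/D1 ratio of 1.86 and reached 4.14, and the lowered genes had a median of 0.524 and went down to 0.266. Their median MBNL KD/D1 ratios were 1.07 and 0.992. Just inside the limit for raised genes stood Ugt1a7c and Ssc5d with ratios of 1.71, and just outside stood Pmm1 and Relb with 1.70 and Phlda3 with 1.69. On the lower side, Map1b at 0.590, LOC102549173 at 0.589 and Phtf1 at 0.588 were just inside, whereas Ypel2 at 0.592 and Lpar6 and Sdf4 at 0.593 were just outside. Ugt1a7c shares exons with other Ugt1a genes, so that its counts are uncertain.

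**Figure D1:**
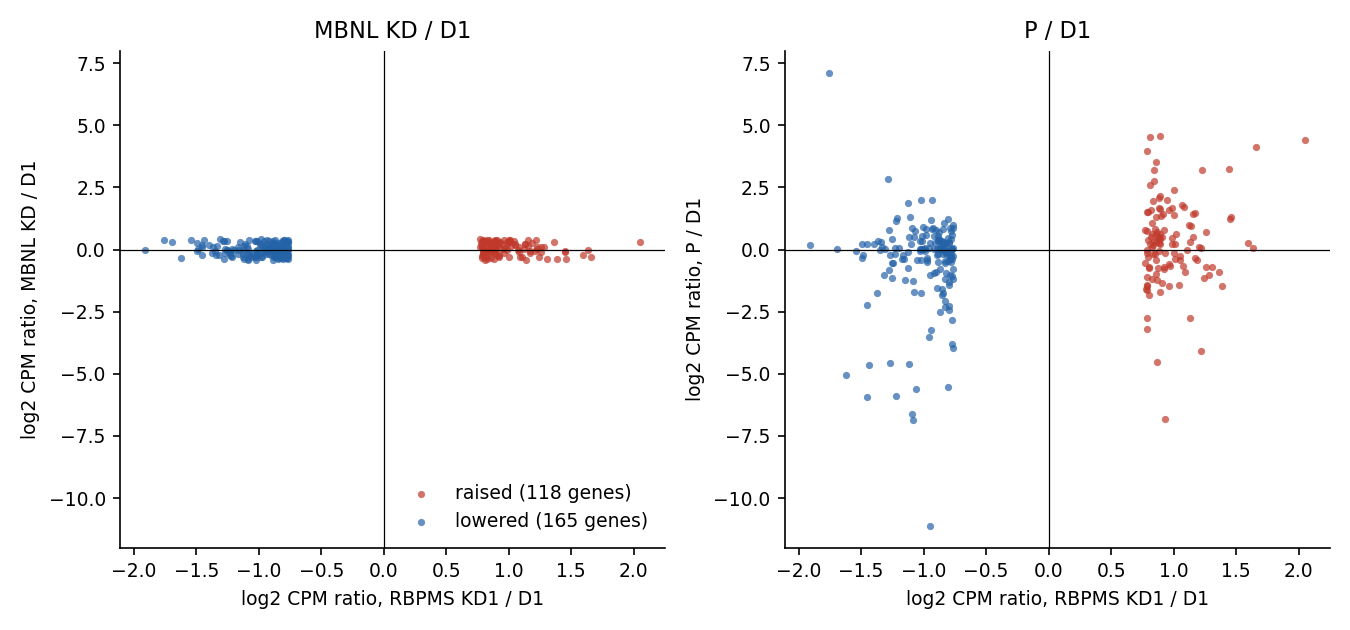
Log2 CPM ratios of the 118 raised (red) and 165 lowered (blue) genes, with RBPMS KD1/D1 on the horizontal axis, and MBNL KD/D1 (left) or P/D1 (right) on the vertical axis. The genes fall outside the RBPMS KD1/D1 limits of 1.7 and 0.59 and inside the MBNL KD/D1 band of 0.75 to 1.33, because the rule placed them there, and they spread widely over the P/D1 ratio.

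The lowered genes took a larger share of the reads than the raised ones. Together the 165 lowered genes took between 2.93% and 2.99% of all counts in D1, 1.49% to 1.50% in RBPMS KD1, 2.71% to 2.73% after MBNL KD and 1.52% in every P library. The 118 raised genes took between 0.263% and 0.267% in D1, 0.486% to 0.494% in RBPMS KD1, 0.273% to 0.275% after MBNL KD and 0.299% to 0.300% in P. The raised genes also varied more between replicates, with a median coefficient of variation in RBPMS KD1 of 4.34% against 3.31% for the lowered genes. Of the raised genes, 43 had all 3 MBNL KD libraries above all 3 D1 libraries and 28 had them all below, where this held for 40.2% and 30.8% of all genes tested, and of the lowered genes 59 were above and 63 below. These counts are given for description, since the rule used the same libraries. Over all 16053 genes tested in MBNL KD against D1, 67.5% passed an adjusted p under 0.05 and 10.2% were called, 6.1% higher and 4.14% lower. The MBNL band keeps every member below the size needed for a call, so that calls of members were not possible there.

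The question put to P was whether genes that differed under the RBPMS siRNA also differed between the states of the line. Calls needed both an adjusted p under 0.05 (quasi-likelihood F test of edgeR, Benjamini-Hochberg adjusted) and a log2 fold change above 1 or below -1, in a fit over all 16814 genes tested, and all 283 genes passed the filter on low counts. P was compared with the same D1 libraries that entered the choice. Of the 118 raised genes, 33 were higher in P and 24 were lower, which is 28.0% and 20.3%. The share called over all genes tested was 16.4% higher and 11.2% lower, and among genes at or above the count floor it was 6.62% and 10.4%. Of the 165 lowered genes, 44 were lower in P (26.7%) and 9 were higher (5.45%), with 112 not called. At the adjusted p alone, 55 raised genes were higher and 48 lower and 49 lowered genes were higher and 104 lower, where 77.9% of all genes tested passed. The median log2 fold change was 0.07 for the raised genes and -0.21 for the lowered ones, against 0.02 over all genes tested. After quantile normalization the calls of the raised genes were 28 higher and 32 lower, the reverse order of their split, whereas the lowered genes gave 11 higher and 44 lower. Fold changes in this fit are scaled by trimmed means of M values, which places P lower than the plain CPM ratios by 0.17 on the log2 scale at the median.

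For the contrasts that chose the genes, the same fits called 36 of the 118 raised genes higher and 69 of the 165 lowered genes lower in RBPMS KD1, where 4.68% of all genes tested were called, 3.06% higher and 1.62% lower. Those counts were set by the rule and are printed for their size only. In P, the CPM ratio to D1 lay inside 0.75 to 1.33 for 29 raised genes (24.6%) and 74 lowered genes (44.8%), against 6225 of 11574 genes at or above the floor (53.8%). Above that band were 53 raised and 34 lowered genes, and below it were 36 raised and 57 lowered genes. All 3 P libraries lay above all 3 of D1 for 64 raised genes and below them for 43, against 51.9% and 28.4% of all genes tested, and for the lowered genes these counts were 61 and 80.

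To describe what the genes do, 125 of the 283 were put into 14 groups by their known roles and 158 were left without one. This grouping was made after their values were seen, so that the counts below are descriptions, and genes named from these groups were partly chosen in the same way.

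**Figure D2:**
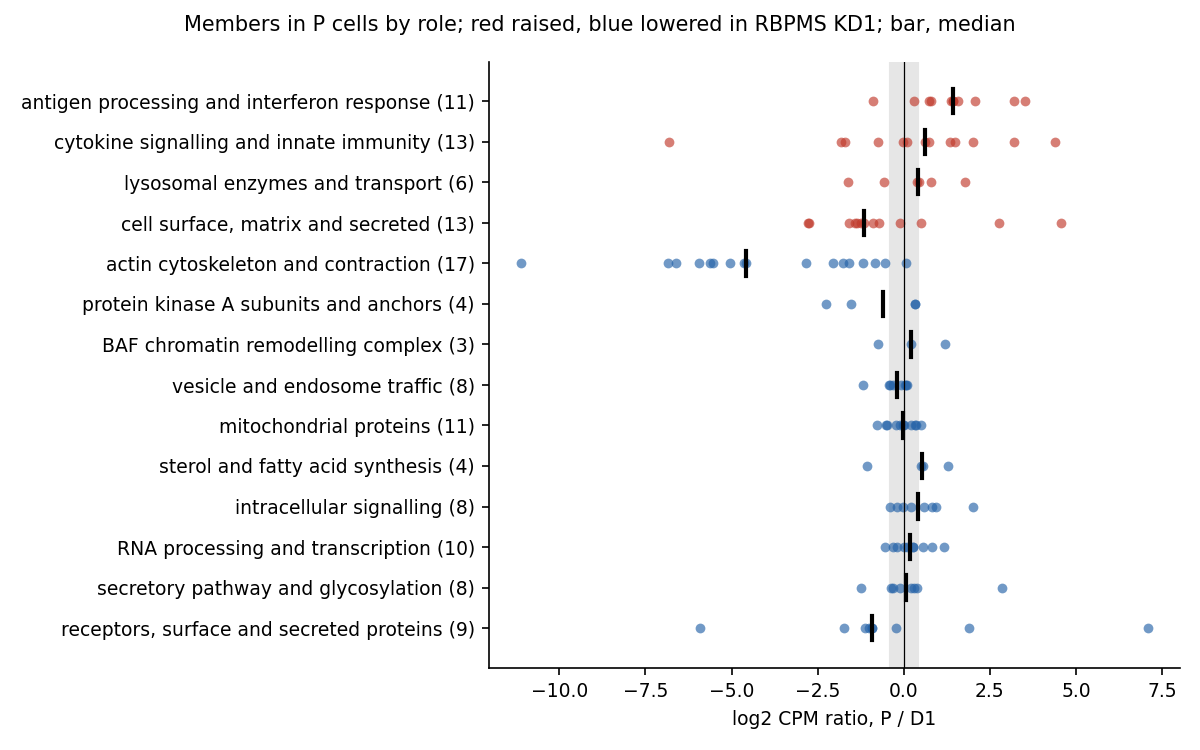
Log2 CPM ratio of P to D1 for the 125 genes given a role, with red points for genes raised and blue points for genes lowered in RBPMS KD1, the number of genes in brackets, a black bar at each median, and the MBNL band shaded. The actin and contraction genes reach below -10 with a median ratio of 0.0417, whereas the mitochondrial genes stay near 0 with a median ratio of 0.982.

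Genes of the actin cytoskeleton and contraction were the largest role group among the lowered genes. There were 17 of them, and their median ratios to D1 were 0.494 in RBPMS KD1, 0.943 after MBNL KD and 0.0417 in P. In P, 15 were called lower, against 10.4% of genes at or above the floor, and 2 were not called. Twf1, an actin monomer-binding protein, was among the 2, with a log2 fold change of -0.11. Of a list of 20 smooth muscle contractile genes, 8 met the rule: Acta2, Actg2, Tagln, Cnn1, Mylk, Myl9, Tpm1 and Tpm2. In P, 19 of the 20 were called lower and Des was called higher, with a median log2 fold change of -3.45. In RBPMS KD1 6 were called lower and Pln higher, with a median of -0.86. In MBNL KD the calls were 2 lower and 3 higher and the median was -0.19. Of all genes tested, 11.2% were called lower and 16.4% higher in P. In RBPMS KD1 these shares were 1.62% and 3.06%, and in MBNL KD 4.14% and 6.1%.

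Acta2 encodes smooth muscle alpha-actin, the main contractile actin of vascular smooth muscle. It stood at 4758, 5023 and 4714 CPM in the D1 libraries, 2220, 2307 and 2273 in RBPMS KD1, 4215, 4203 and 4263 after MBNL KD and 51.0, 47.3 and 50.6 in P. No library of one group overlapped another group, and the order from D1 to MBNL KD to RBPMS KD1 to P held in every library. The ratios to D1 were 0.469 in RBPMS KD1 and 0.875 in MBNL KD, and P was lower by a log2 fold change of -6.77 ± 0.04 (SE, edgeR adjusted p = 4.7e-46). Actg2, the gamma-actin of visceral smooth muscle, read 837, 848 and 842 CPM in D1, 432, 440 and 438 in RBPMS KD1, 804, 802 and 776 after MBNL KD and 0.423, 0.460 and 0.251 in P. The P libraries held between 22 and 40 counts of it, against 75517 to 76513 in D1. The log2 fold change in P was -11.28 ± 0.05 (edgeR adjusted p = 8e-47), the largest fall among the 283. Reads of near-identical actin copies could be split by the counting, and the values of single actin genes are uncertain to that extent.

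Mylk, the kinase that phosphorylates the myosin light chain and starts contraction, was among the genes lowered most. It read 225, 230 and 214 CPM in D1, 72.7, 72.0 and 72.2 in RBPMS KD1, 181, 174 and 175 after MBNL KD and 7.21, 5.93 and 6.92 in P. All 4 groups were separated, and the log2 fold change in P was -5.23 ± 0.04 (edgeR adjusted p = 1.6e-40). Cnn1, the actin-binding protein calponin, gave 18.0, 18.5 and 18.6 CPM in D1 and 7.44, 6.54 and 6.15 in RBPMS KD1. In MBNL KD it gave 21.0, 20.2 and 20.9, above every D1 library, and in P 0.389, 0.184 and 0.320. Nexn, an actin filament protein, had ratios of 0.369 in RBPMS KD1 and 1.29 in MBNL KD, with 133, 138 and 138 CPM in D1, 50.7, 46.9 and 53.4 in RBPMS KD1 and 5.20, 5.36 and 5.88 in P. Irag1, which links cyclic GMP signalling to calcium release in smooth muscle, kept the D1 level after MBNL KD at a ratio of 1.00, read 0.471 in RBPMS KD1, and was lower in P by a log2 fold change of -7.02 ± 0.05 (edgeR adjusted p = 4.2e-43). Ankrd1, a muscle ankyrin repeat protein on a list of YAP and TEAD targets, had ratios of 0.480, 0.814 and 0.0203 in RBPMS KD1, MBNL KD and P.

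**Figure D3:**
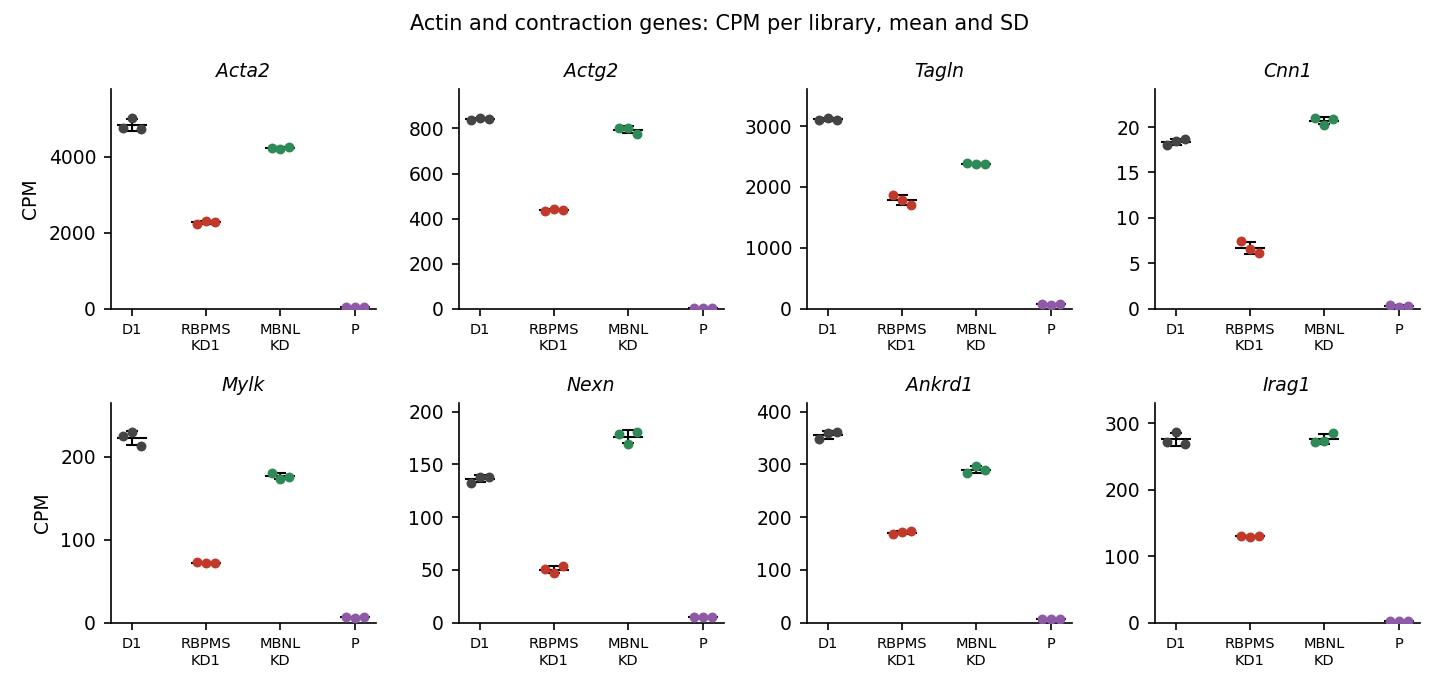
CPM per library of contractile and actin-associated genes in D1, RBPMS KD1, MBNL KD and P, with the mean and SD of 3 libraries. In each panel RBPMS KD1 lies between D1 and P, with Acta2 at 4832 ± 167, 2267 ± 43.6 and 49.7 ± 2.05 CPM in D1, RBPMS KD1 and P.

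The genes raised in RBPMS KD1 included 11 of antigen processing and the interferon response, the program by which cells show peptides on class I molecules and answer to viral signals. Their median ratios were 1.89 in RBPMS KD1, 0.871 after MBNL KD and 2.68 in P, where 7 were called higher, 1 lower and 3 neither. Of a list of 31 interferon-stimulated genes, 4 met the rule, Irf7, Gbp2, Psmb9 and Tap1. In P, 17 of the 29 of that list tested were called higher and 1 lower, against 16.4% and 11.2% of all genes tested, with a median log2 fold change of 1.17. In RBPMS KD1, 4 of 28 were called higher, against 3.06% of all genes tested, with 23 higher and 1 lower at an adjusted p under 0.05 alone, which 59.1% of all genes tested passed in either direction. In MBNL KD 2 were called higher and 3 lower. The leukocyte markers summed to between 82.4 and 84.4 CPM in RBPMS KD1 and between 55.6 and 60.2 in D1, almost all of it Cd14, while Ptprc and Itgam were at or under 3 counts in both groups. Fewer cells of a type and less RNA per cell cannot be told apart in bulk libraries such as these.

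Psmb9 is a catalytic subunit of the immunoproteasome, which cuts proteins into peptides for class I molecules. It read 4.98, 5.77 and 6.17 CPM in D1, 11.3, 9.94 and 9.36 in RBPMS KD1, 4.70, 4.14 and 4.43 after MBNL KD and 62.7, 65.8 and 65.1 in P. The MBNL KD libraries lay below D1 and the P libraries far above it, with a log2 fold change of 3.35 ± 0.05 (edgeR adjusted p = 3.9e-33). Tap1, a subunit of the transporter that carries these peptides into the endoplasmic reticulum, read 32.7, 33.9 and 33.6 CPM in D1, 65.7, 60.2 and 60.9 in RBPMS KD1, 35.8, 30.8 and 33.1 after MBNL KD and 85.6, 87.1 and 84.8 in P. MBNL KD overlapped D1, whereas RBPMS KD1 and P were both above it. Nlrc5, which activates transcription of class I genes, went from 1.05, 0.931 and 0.948 CPM in D1 to 2.59, 2.18 and 2.09 in RBPMS KD1 and 7.77, 9.21 and 9.72 in P. Its MBNL KD values of 1.16, 0.979 and 0.854 overlapped D1. Psme2, a subunit of a proteasome activator, was raised by a similar ratio in RBPMS KD1 (1.89) and P (1.74), and the P difference of 0.63 ± 0.07 on the log2 scale passed the adjusted p but not the size needed for a call (edgeR adjusted p = 2.6e-09).

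Irf7, a transcription factor that drives interferon genes, differed between replicates of a group. It read 11.4, 9.07 and 11.9 CPM in D1, 27.7, 21.4 and 22.9 in RBPMS KD1, 18.6, 11.5 and 12.1 after MBNL KD and 29.7, 28.4 and 29.4 in P. Replicate 1 was the highest in both knockdowns, and in MBNL KD it alone lay above every D1 library by more than the D1 range. The class I gene RT1-S3 was also highest in replicate 1 of both knockdowns, with 17.3, 12.7 and 12.9 CPM in RBPMS KD1 and 10.4, 4.60 and 8.21 in MBNL KD, against 6.65, 6.01 and 6.91 in D1 and 7.35, 7.96 and 8.82 in P. Its MBNL KD libraries lay both above and below D1. RT1 genes are close copies of one another, and counting could split their reads. Without MBNL KD replicate 2 or replicate 3, Irf7 left the MBNL band and was no longer chosen, and it also left without D1 replicate 1 or replicate 3. Of the 11 genes, between 9 and 11 were chosen when 1 library was left out. Psmb9 left the set without D1 replicate 1, Nlrc5 without RBPMS KD1 replicate 1 and RT1-S3 without MBNL KD replicate 2.

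A pair of guanylate-binding GTPases next to each other in the genome, both induced by interferon, went opposite ways in P. Gbp2 read 20.7, 19.7 and 23.2 CPM in D1, 39.3, 38.2 and 39.7 in RBPMS KD1, 18.2, 15.4 and 15.8 after MBNL KD and 88.7, 91.0 and 88.1 in P. Gbp1 read 3.13, 3.08 and 3.36 in D1, 7.69, 5.81 and 6.90 in RBPMS KD1, 3.51, 1.66 and 2.71 after MBNL KD and 1.72, 1.76 and 1.66 in P. The log2 fold changes in P were 1.91 ± 0.04 for Gbp2 and -1.07 ± 0.12 for Gbp1 (edgeR adjusted p = 2.6e-29 and 1.7e-09). Gbp1 was named after its values were seen. Both Gbp1 and Gbp2 left the set when MBNL KD replicate 1 was left out.

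**Figure D4:**
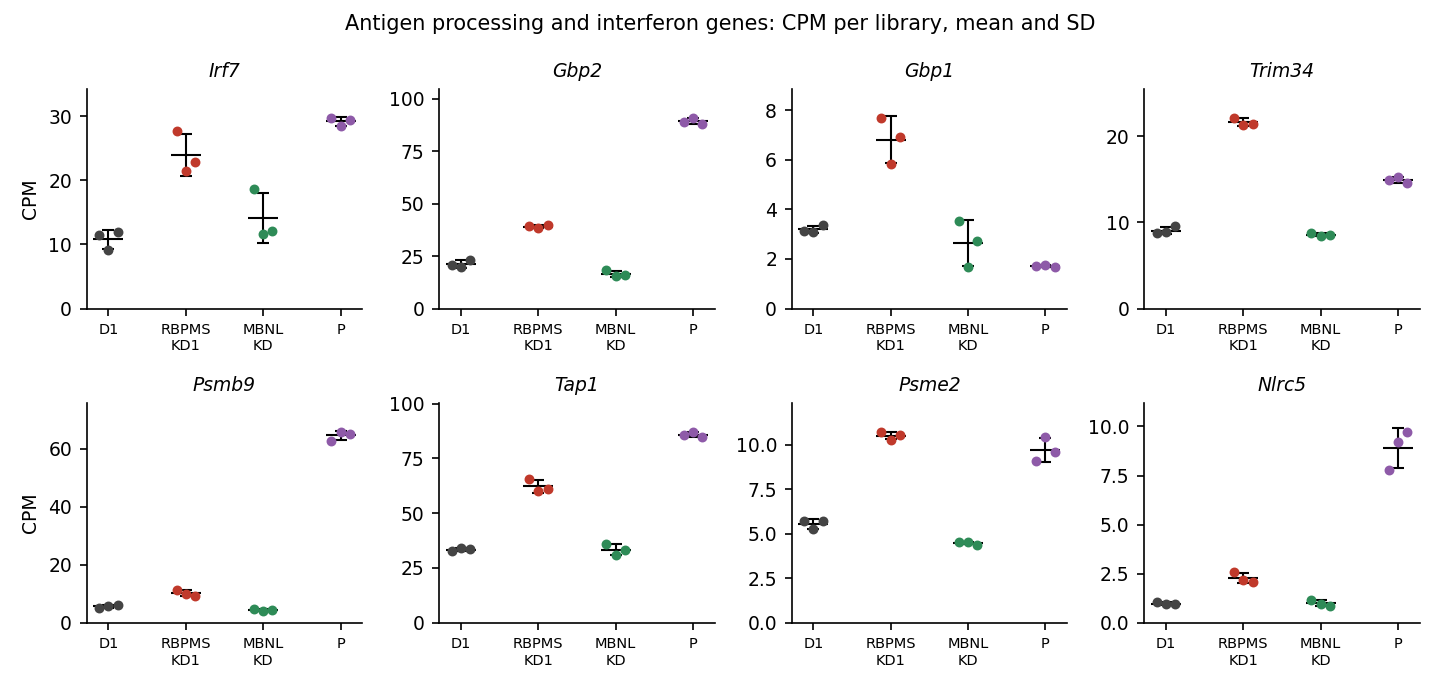
CPM per library of 8 antigen processing and interferon genes in D1, RBPMS KD1, MBNL KD and P, with the mean and SD of 3 libraries. All 8 are above D1 in RBPMS KD1, and in P Psmb9 reaches 64.5 ± 1.60 CPM from 5.64 ± 0.608 in D1 while Gbp1 falls to 1.71 ± 0.0515 from 3.19 ± 0.151.

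Promoter windows were compared because these groups hold genes that moved together. RefSeq windows of GRCr8 reaching from 250 bases before to 50 after the first listed start were found for 209 of the 283 genes, 84 raised and 125 lowered, among 27457 in all. The core of the interferon-stimulated response element, GAAA followed by any 2 bases and GAAA on either strand, was present in 12 of the 84 raised genes (14.3%), 2 of the 125 lowered genes (1.60%), 2.92% of 8942 genes at or above the floor and 3.77% of all promoters. Among the antigen processing and interferon genes it was in 6 of 10. The matches of 6 genes are shown with 10 bases on each side, with the core in capitals.
Tap1, chr20:4668645-4668674, plus strand: agaggaagaaGAAACCGAAAgcagccaccg
Irf7, chr1:205800073-205800102, plus strand: tgcgtctcggGAAAATGAAAcctaaactgt
Gbp2, chr2:234005686-234005715, minus strand: ttaagacaatGAAAGTGAAActaaaaaact
Psme2, chr15:33052785-33052814, minus strand: cctggagagtGAAAGCGAAAgctggggctg
Tnfrsf1b, chr5:162387402-162387431, plus strand: gctggtgactGAAAGTGAAAcccccaggcc
LOC100910973, chr1:217133278-217133307, minus strand: agttcatattGAAAGTGAAActgacattct
None of the 12 genes was called lower in P, and the size of their change differed. Of these, 6 were called higher, against 6.62% of genes at or above the floor, and 6 were not called. P/D1 ratios ran from 0.984 in Tnfrsf1b, a receptor for tumour necrosis factor, to 17.7 in LOC100910973, which has no assigned function. The median P/D1 ratio was 2.13. Over the 261 genes with this core at or above the floor, the median CPM ratios were 1.07 in RBPMS KD1, 1.00 after MBNL KD and 1.17 in P, against 1.00, 1.01 and 1.09 over all such genes with a promoter.

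Among the contractile genes another motif was present in part of the windows. The MCAT element CATTCC, the sequence bound by TEAD factors, was present on either strand in 6 of 13 actin and contraction genes with a window, against 14.4% of lowered genes, 11.9% of raised genes, 10.9% of genes at or above the floor and 13.9% of all promoters. All 6 were called lower in P, with ratios from 0.00862 to 0.296, as were 15 of the 17 genes of that group. The share called lower in P was 10.4% among genes at or above the floor. Over the 972 genes with the element at or above the floor, the median CPM ratios were 1.02 in RBPMS KD1, 1.02 with the MBNL siRNAs and 1.05 in P, against 1.00, 1.01 and 1.09 over all such genes with a promoter. The matches of 4 of them are shown with the element in capitals.
Acta2, chr1:241172684-241172709, plus strand: tcttccactgCATTCCtctgctctgc
Mylk, chr11:79498595-79498620, minus strand: tgctgttgacCATTCCacctcaggaa
Nexn, chr2:243878238-243878263, plus strand: gcggctcccgCATTCCagacgggccc
Irag1, chr1:174528950-174528975, minus strand: ggacagaaaaCATTCCcagcttctcc
The CArG box, the element of serum response factor, was read as CC, 6 bases of A or T and GG, and in this strict form was found in 1 of 84 raised and 0 of 125 lowered windows, against 1.38% of genes at or above the floor and 1.64% of all promoters. With 1 mismatch allowed among the 6 bases, a form added after the data were seen, it was in 4 raised and 9 lowered windows, Acta2 among them, against 8.24% of genes at or above the floor and 9.27% of all promoters. The AP-1 site TGANTCA was in 7.14% of raised and 6.40% of lowered windows, 4.56% of those at or above the floor and 7.33% of all promoters. In the same order, the shares were 2.38%, 4.80%, 3.25% and 1.53% for the E2F sites TTTCCCGC or TTTGGCGC, 35.7%, 36.0%, 38.6% and 37.7% for the CCAAT box, and 8.33%, 11.2%, 9.82% and 6.65% for the E-box CACGTG. All were read on both strands, and a match may overlap a match of another motif. These are matches of letters in a window and no measure of binding.

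Other raised genes of cytokine signalling and innate immunity, 13 in all, moved in both directions in P. Of these, 5 were called higher, 3 lower and 5 neither, against 6.62% higher and 10.4% lower among genes at or above the floor. Scara5, a scavenger receptor that takes up ferritin, had the highest RBPMS KD1/D1 ratio of all, 4.14. It read 3.01, 3.22 and 3.03 CPM in D1, 13.1, 13.2 and 12.1 in RBPMS KD1, 4.10, 3.48 and 3.77 after MBNL KD and 64.9, 61.1 and 69.1 in P. The groups did not overlap, and the log2 fold change in P was 4.23 ± 0.06 (edgeR adjusted p = 5.1e-35). C1rl, a protease related to complement C1r, gave an equally clear ratio of 3.10 in RBPMS KD1 but not in P, where it read 7.43, 8.91 and 7.70 CPM against 8.15, 6.93 and 7.62 in D1. Colec10, a collectin of innate immunity, read 4.80, 5.48 and 5.27 CPM in D1 and 9.54, 10.8 and 9.25 in RBPMS KD1, whereas the P libraries held 6, 2 and 4 counts, around the 3 counts treated as not detected.

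Surface, matrix and secreted proteins made up 13 further raised genes, and this was the raised group in which most were lower in P. There, 8 of 13 were called lower and 2 higher, against 10.4% and 6.62% of genes at or above the floor. Reck, a membrane-anchored inhibitor of matrix metalloproteinases, read 148, 145 and 146 CPM in D1, 247, 255 and 254 in RBPMS KD1, 164, 168 and 167 after MBNL KD and 55.6, 54.7 and 54.3 in P. Its libraries were separated in all 4 groups, with P lower by a log2 fold change of -1.58 ± 0.03 (edgeR adjusted p = 7.3e-32). Dkk3, a secreted protein of the Dickkopf family, went the other way in P, from 1.93, 1.67 and 2.20 CPM in D1 to 3.92, 3.42 and 3.42 in RBPMS KD1 and 46.9, 44.9 and 46.8 in P. Bhlhe41, a circadian transcriptional repressor, stood at 5.20 ± 0.371 CPM in D1, 9.14 ± 0.540 in RBPMS KD1, 4.22 ± 0.172 after MBNL KD and 121 ± 1.94 in P. Of 6 lysosomal genes, Ctso, a cathepsin, was higher in P at a ratio of 3.45 and Igf2r, the receptor that carries enzymes to lysosomes, was lower at 0.324, while their RBPMS KD1 ratios were 2.10 and 1.72.

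Other groups of lowered genes were read against the 6.62% and 10.4% of genes at or above the floor that were called higher and lower in P, a share at which a group of this size would hold few calls or none. None of the 11 genes of mitochondrial proteins was called in P in either direction by edgeR, DESeq2 or limma, although 3 were higher and 7 lower at an unadjusted p under 0.05. Of the 10 genes of RNA processing and transcription, edgeR and DESeq2 called none and limma called 1 higher, and 5 were higher and 5 lower at an unadjusted p under 0.05. Of the 8 genes of vesicle and endosome traffic, 7 were not called. A gene that was not called may still differ from D1 by a smaller amount, since 12 of all 165 lowered genes missed the adjusted p. Asb13, a substrate adaptor of ubiquitin ligases, had the lowest RBPMS KD1/D1 ratio of all, 0.266. It read 13.1, 13.8 and 14.2 CPM in D1, 3.66, 3.47 and 3.80 in RBPMS KD1, 13.8, 14.1 and 12.5 after MBNL KD and 14.2, 15.6 and 16.4 in P. RBPMS KD1 was below every other library, and P did not differ from D1 by the test (log2 fold change 0.00 ± 0.06, edgeR adjusted p = 0.945).

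Mtor, the kinase at the core of nutrient signalling, read 96.8, 96.8 and 97.6 CPM in D1, 35.1, 34.4 and 36.6 in RBPMS KD1, 106, 105 and 104 after MBNL KD and 111, 114 and 115 in P. RBPMS KD1 was the only group with low values, and the log2 fold change in P was 0.06 ± 0.03 (edgeR adjusted p = 0.0552). Smarce1, a subunit of the BAF chromatin remodelling complex, was similar at 144 ± 0.728 CPM in D1, 51.1 ± 1.10 in RBPMS KD1, 140 ± 3.07 after MBNL KD and 166 ± 4.96 in P. Tomm22, part of the mitochondrial protein import pore, stood at 74.8 ± 2.25, 29.1 ± 0.233, 79.9 ± 2.43 and 96.1 ± 1.56 CPM in the same order. Mrpl13, a mitochondrial ribosomal protein, and Sec22b, a protein of vesicle fusion, had RBPMS KD1/D1 ratios of 0.380 and 0.397 and P/D1 ratios of 1.16 and 1.06. Mapk14, the stress kinase p38 alpha, had ratios of 0.427 and 0.881, with a log2 fold change in P of -0.35 ± 0.02 (edgeR adjusted p = 1.4e-14). Its P libraries of 148, 145 and 146 CPM were all below the D1 libraries of 166, 165 and 166 and above the RBPMS KD1 libraries of 72.9, 68.2 and 71.5.

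**Figure D5:**
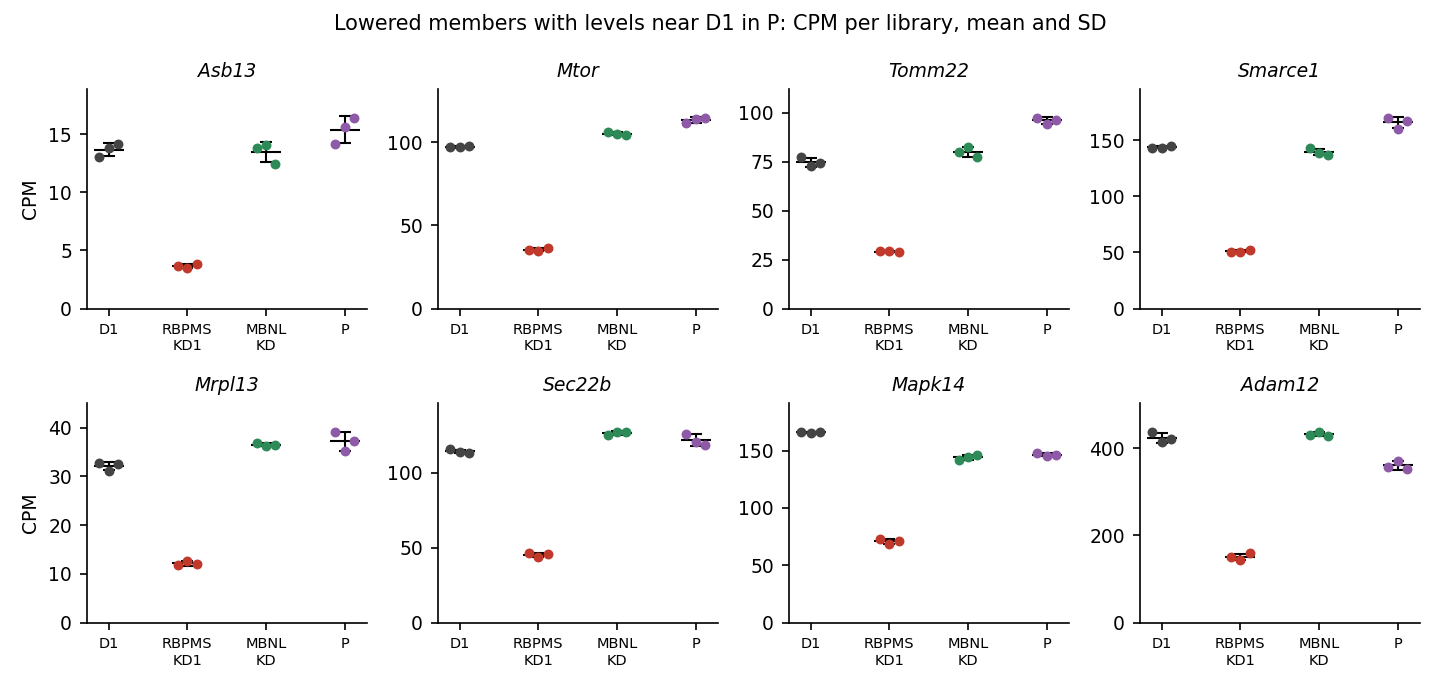
CPM per library of 8 lowered genes chosen for display after their values were seen, in D1, RBPMS KD1, MBNL KD and P, with the mean and SD of 3 libraries. In each panel the RBPMS KD1 libraries are below all other libraries, as for Asb13 at 3.65 ± 0.166 CPM against 13.7 ± 0.544 in D1 and 15.4 ± 1.14 in P.

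Lowered genes of receptors, surface and secreted proteins differed most widely in P, with 6 of 9 called lower and 2 higher. The shares among genes at or above the floor were 10.4% lower and 6.62% higher. Emb, the transmembrane glycoprotein embigin, read 2.63, 2.64 and 2.19 CPM in D1, 0.927, 0.485 and 0.793 in RBPMS KD1, 2.83, 3.47 and 3.56 after MBNL KD and 340, 342 and 341 in P. It was thus lowest in RBPMS KD1 and highest in P, with a log2 fold change in P of 6.93 ± 0.04 (edgeR adjusted p = 3.6e-44), the largest rise among the 283, and it left the set when D1 replicate 1, D1 replicate 2 or MBNL KD replicate 1 was left out. Cd93, a C-type lectin receptor, fell in P instead, at 64.9, 71.1 and 61.8 CPM in D1, 27.6, 28.0 and 29.2 in RBPMS KD1, 56.8, 54.8 and 54.8 after MBNL KD and 1.01, 0.966 and 1.31 in P. Agtr1a, the receptor for the vasoconstrictor angiotensin II, gave ratios of 0.387 in RBPMS KD1, 0.917 after MBNL KD and 0.299 in P (log2 fold change -1.91 ± 0.13, edgeR adjusted p = 3.2e-15). Among genes of protein kinase A, the regulatory subunits Prkar2a and Prkar2b had RBPMS KD1/D1 ratios of 0.490 and 0.553 and P/D1 ratios of 1.26 and 1.25. The anchoring protein Akap12 had ratios of 0.575 and 0.209.

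Of a list of 30 splicing regulator genes, Ptbp3, a paralog of the polypyrimidine tract-binding protein, was the only one to meet the rule. Its ratios were 0.430 in RBPMS KD1, 1.02 after MBNL KD and 2.23 in P, where the log2 fold change of 0.99 ± 0.03 fell just short of a call (edgeR adjusted p = 1.8e-26) and passed after quantile normalization. Idi1 and Fdft1, enzymes of cholesterol synthesis, were the members from a list of 20 cholesterol and fatty acid synthesis genes. In RBPMS KD1 edgeR called 1 of 18 tested lower, against 1.62% of all genes tested, and DESeq2 called 2. In MBNL KD edgeR called 4 of 18 lower, against 4.14%, and limma called 1. In P 5 of 19 were called higher, against 16.4%. The median log2 fold change of that list was -0.15 in RBPMS KD1 and -0.69 in MBNL KD, so that the list as a whole was not lower in RBPMS KD1 only. None of 24 DNA replication and mitosis genes met the rule, which took 283 of 11574 genes at or above the floor, and none was called in RBPMS KD1 or P in either direction by edgeR, DESeq2 or limma. Over all genes tested, 4.68% were called in RBPMS KD1 and 27.6% in P, and among genes at or above the floor 6.62% were higher and 10.4% lower in P. At an adjusted p under 0.05, edgeR had 22 of these lower and 1 higher in RBPMS KD1, with a median log2 fold change of -0.29. In P it had 13 higher and 6 lower, and 14 higher and 6 lower at an unadjusted p under 0.05. Of all genes tested, 59.1% and 77.9% passed the adjusted p in RBPMS KD1 and P. In MBNL KD, 6 of the 24 were called lower by edgeR and DESeq2 and 5 by limma, with a median of -0.65.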

How the data were processed

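Poly(A) RNA of 12 PAC1 libraries was analysed. Per the study's methods, the authors subsampled reads with seqtk, aligned them with STAR 2.7.11b to mRatBN7.2 and made the deposited counts per RefSeq gene symbol with featureCounts; the strand setting of counting is not given in the sources used here. The deposited normalised signal values were made by the authors with noisyR and quantile normalization and served as an alternative. Members, lists and roles were chosen with earlier results of these data known. CPM used column sums. Each comparison with D1 was fitted to its 6 libraries in R 4.3.3 with edgeR 4.0.16 (filterByExpr, trimmed means, quasi-likelihood F test, Benjamini-Hochberg adjustment over all genes tested, no replicate block). SE is the log2 fold change over the square root of F. Alternatives used DESeq2 1.42.0 and limma 3.58.1. On simulated data with 200 genes changed, edgeR recovered 200 with 2 others for P. With 3 libraries against 3, an exact permutation test cannot go below 0.1. A count of 3 or fewer was taken as not detected, at 0.033 to 0.037 CPM, and covers counting error only. Named genes were members of the fixed lists, the 15 highest and 15 lowest RBPMS KD1/D1 ratios, the 8 largest and 8 smallest called changes in P, the 3 genes on each side of each limit, and the targeted genes. Others were chosen after their values were seen. Of the genes nearest the limits, 1 is not reported here. Promoter sequences are from RefSeq, GRCr8, at the first listed start of each symbol.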

Additional observations from a re-analysis of the deposited data

How the results depend on the processing

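With ratio limits of 2 and 0.5, 107 genes met the rule (41 raised, 66 lowered), and with an MBNL KD/D1 band of 0.83 to 1.2 there were 181, 71 of them raised. Without any 1 of the D1 or knockdown libraries, the rule took between 267 and 287 genes, and 207 were chosen in all 9 such sets. TMM-scaled library sizes gave 287 genes (264 shared) and the authors' normalised values 229 (213 shared). By limma on those normalised values, 1582 genes were called higher in P, 209 were called in RBPMS KD1 (105 higher, 104 lower) and 784 in MBNL KD (388 higher, 396 lower), against 2758, 745 and 1643 by edgeR on the counts; the cause was not tested. Quantile normalization moved the share of calls that were higher from 59.4% to 45.8% in P, from 65.4% to 54.3% in RBPMS KD1 and from 59.6% to 50.6% in MBNL KD. Of the raised genes, limma called 26 higher and 28 lower in P. Leaving out a D1 or P library gave 33 higher and between 24 and 25 lower for the raised genes, and between 8 and 10 higher and between 43 and 45 lower for the lowered genes.

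With the replicate number as a block, 4593 genes were called in P, 730 in RBPMS KD1 and 1634 in MBNL KD, and the counts over the 283 genes did not move (33 and 24, 9 and 44). Same-numbered libraries correlated between -0.0252 and 0.0136 in their deviations from the group means, so that they share only a number. Of 897 values recomputed for 69 named genes, none changed direction and 11 changed their call, in 5 genes (Anxa8, Ptbp3, Npas1, Ugt1a7c and Map1b). Depth limits genes near 3 counts, such as Colec10 in P.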

Other observations

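Of the 283 genes, 267 were found in the RefSeq gene table of GRCr8, and 7 pairs lay next to each other there. In 4 pairs both genes moved the same way in RBPMS KD1: Tap1 with Psmb9 and Gbp2 with Gbp1 were raised, Tmem252 with Pgm5 and Rab5a with Pp2d1 were lowered. In the other 3 pairs they moved opposite ways: Spcs1 was lowered beside the raised Glt8d1, Akap1 was lowered beside the raised Scpep1, and Rnf121 was lowered beside the raised Il18bp. Tap1 and Psmb9 are read in opposite directions from starts whose 300-base promoter windows share 44 bases, and those of Spcs1 and Glt8d1 share 8 bases. Because the strand setting of counting is not given in the sources used here, reads of overlapping genes cannot be told apart.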
